A study of Homo sapiens with 12 samples.

Results

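MCF10A cells, an established line of non-tumorigenic human breast epithelium, were compared after a single radiation treatment (RT) of 20 Gy between a pool labelled IL1R1-KO and wild-type (WT) cells. The comparison was defined by the sample labels and rested on 4 of the 12 RNA-seq libraries of the series, 2 of irradiated IL1R1-KO cells and 2 of irradiated WT cells. The other 8 libraries, 2 in each group, comprised the 3 genotypes without RT, among them IL1RAP-KO, together with IL1RAP-KO given 20 Gy, and they served here for shared error estimates and for side-by-side values. The methods of the study state that the knockouts were lentiviral CRISPR pools selected with puromycin and not clones, and that 2 guides per gene existed. Which guide gave these libraries, whether the WT cells carried an empty vector, and how long after RT the RNA was taken were not given in the sources used here. All groups were grown as the same line, so the genotype label and RT were the only factors named.

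IL1R1 is the signalling receptor for the cytokines IL-1α and IL-1β, and IL1RAP is the accessory chain that it recruits once a ligand has bound. The assembled receptor passes the signal through MYD88, the IRAK kinases and TRAF6 to the IKK complex, which releases NF-κB transcription factors from their inhibitors. NF-κB then switches on chemokines, cytokines, acute phase and antimicrobial proteins and, as a brake, its own inhibitors. In epithelial cells IL-1α is stored in the cytoplasm and can act on the cell that made it or on its neighbours, and senescent or damaged cells are known to keep this loop active as part of their secretory programme. RNA was measured as TPM (transcripts per 1000000), a unit normalised to gene length and to the total of each library. The TPM were rescaled between libraries by trimmed mean of M-values (TMM) factors, and the resulting level is called scaled TPM below. TPM keep no read depth, so the sequencing depth behind each value is unknown.

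The level of the targeted mRNA itself did not fall in the libraries labelled IL1R1-KO. IL1R1 (chr2:102064544-102179874, plus strand, GRCh38) stood at 7.38 and 6.07 scaled TPM in the irradiated WT libraries and at 8.34 and 7.38 in the irradiated libraries labelled IL1R1-KO. The groups overlapped on this gene, and the log2 fold change was 0.20 with a 95% confidence interval from -0.16 to 0.56 (limma adjusted p = 0.472). Without RT the levels were 10.6 and 9.44 in WT and 11 and 7.79 in IL1R1-KO. IL1RAP (chr3:190514051-190659750, plus strand) stood at 8.33 and 8.79 scaled TPM in irradiated WT and at 11.8 and 14.4 in irradiated IL1R1-KO, a log2 difference of 0.56 that did not pass the test (adjusted p = 0.127). In the irradiated IL1RAP-KO libraries, IL1RAP stood at 3.05 and 5.80 and IL1R1 at 14.9 and 14.4. A CRISPR insertion or deletion need not lower the amount of an mRNA, so these levels check the label only in part. The paper reports that its IL1R1 and IL1RAP knockout cells resisted loss of the NF-κB inhibitor IκBα under IL-1α or IL-1β. It also reports depletion of IL1RAP protein, while no suitable antibody was found for IL1R1. Whether the same cells were sequenced was not given. Every direction given here is that of the libraries labelled IL1R1-KO.

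Of 15303 genes tested, 289 were lower (1.89%) and 180 were higher (1.18%) in irradiated IL1R1-KO than in irradiated WT cells. A gene was called when its Benjamini-Hochberg adjusted p in limma was under 0.05 and its fold change exceeded 2. The decreases were larger than the increases. Among the lower genes, 82 changed by more than 2 on the log2 scale and 39 by more than 3, with a median of -1.53, whereas 11 of the higher genes changed by more than 2 and none by more than 3, with a median of 1.24. Protein-coding genes made up 250 of the lower and 141 of the higher set, and lncRNAs 23 and 30. Together the lower genes took 7.17% and 6.93% of all TPM in the irradiated WT libraries and 1.18% and 1.21% in the irradiated IL1R1-KO libraries. The higher genes took 0.252% and 0.348% in WT against 0.898% and 0.919% in IL1R1-KO.

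The balance between higher and lower calls depended on the scaling. The median log2 fold change of all genes was 0.00 with TMM factors, 0.23 with TPM as deposited and 0.31 after scaling to the summed nuclear protein-coding genes. With TPM as deposited 374 genes were called higher and 210 lower, and with nuclear protein-coding scaling 535 and 199. Mitochondrially encoded RNA took 38.3% and 36.9% of TPM in irradiated WT and 40.6% and 41.2% in irradiated IL1R1-KO. The changes below are therefore relative to the median gene. The libraries of both groups failed to overlap for 29.3% of all genes in the higher and 29.1% in the lower direction, so non-overlap alone is common with 2 libraries against 2.

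**Figure D1:**
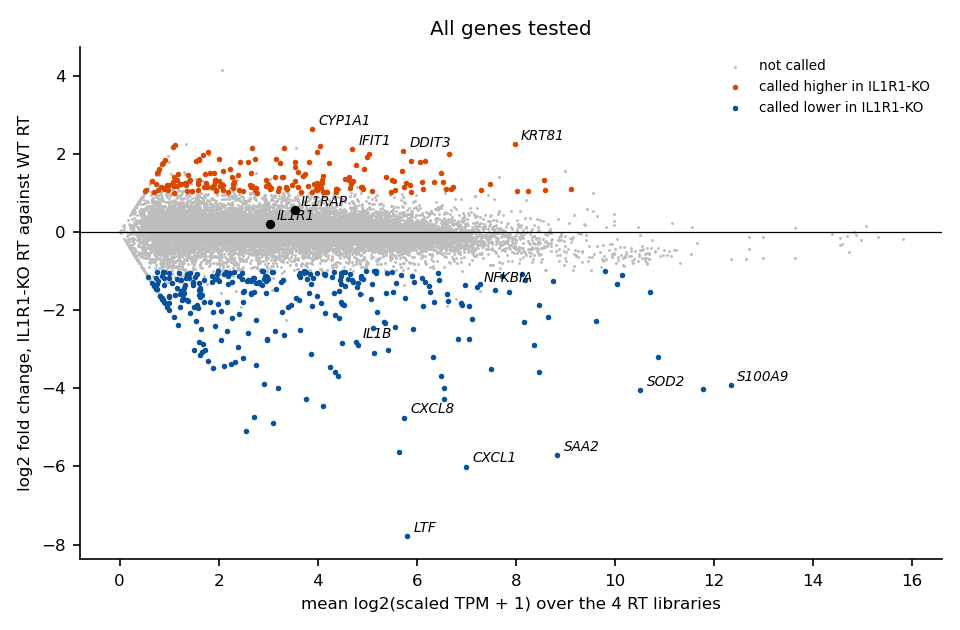
Log2 fold change of irradiated IL1R1-KO against irradiated WT (vertical axis) against the mean log2(scaled TPM + 1) of the 4 libraries (horizontal axis) for all 15303 genes tested. Each point is a gene, blue where it was called lower (289), orange where it was called higher (180) and grey otherwise, and the black points mark IL1R1 and IL1RAP near 0. The lower genes reach -7.77 at LTF, while the called increases stay under 3.

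The IL-1 ligands themselves were lower in irradiated IL1R1-KO cells. IL1B was at 70.5 and 73.1 scaled TPM in WT and at 8.40 and 10.3 in IL1R1-KO, a fall of 2.82 on the log2 scale (SE 0.16, adjusted p = 5.68e-06). IL1A was at 182 and 184 in WT and at 48.2 and 58.2 in IL1R1-KO, a fall of 1.77 (SE 0.10, adjusted p = 7.54e-06). For both cytokines the libraries of a group lay close together and far from the other group. Of the 11 ligands and antagonists of the family in the list, 4 passed the filter on low values, and the remaining tested members did not change past the threshold. IL18, a related cytokine that uses another receptor, was at 145 and 129 in WT and 107 and 127 in IL1R1-KO (adjusted p = 0.183). IL1RN, the natural receptor antagonist, was at 3 and 3.84 against 5.93 and 6.4, a log2 difference of 0.70 that missed the threshold (adjusted p = 0.0547).

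None of the 7 tested receptors of the IL-1 family was called, and their median log2 fold change was 0.01. IL1RL1, the receptor for IL-33, was at 6.44 and 3.67 in WT and 1.81 and 2.21 in IL1R1-KO (log2 fold change -0.97, adjusted p = 0.0259), a change under the required fold. IL1R2, the decoy receptor, stayed between 0.488 and 1.69 in all 4 libraries. In the relay from receptor to IKK, IRAK2 alone was called among 17 tested members, with a list median of -0.03. IRAK2, a kinase of the receptor complex that is itself an NF-κB target, fell from 29.9 and 27.6 to 4.54 and 3.87 (log2 fold change -2.52, adjusted p = 1.13e-05). MYD88, IRAK1, IRAK4, TRAF6, MAP3K7 and CHUK, which carry the signal onward and were named outside the rule, had log2 fold changes between -0.17 and 0.27. None of them passed the test, and over all 17 tested members the changes ran from -2.52 to 0.41.

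Of the 5 NF-κB subunits, 2 fell. NFKB2, the precursor of p52, was at 33.7 and 33.4 scaled TPM in WT and at 11 and 10.2 in IL1R1-KO (log2 fold change -1.57, adjusted p = 0.000247). RELB, its usual partner, was at 14 and 13.6 in WT and at 4.47 and 4.35 in IL1R1-KO (-1.45, adjusted p = 0.000417). Both are known NF-κB target genes. NFKB1 went from 36.1 and 34.3 to 19.2 and 19.8, a difference of -0.82 that passed the adjusted p (0.000562) but not the fold required. REL had a log2 difference of -0.49 (adjusted p = 0.0573). RELA, the main activating subunit, was at 27.4 and 27.7 against 29.3 and 30.6, with an interval of the log2 difference from -0.14 to 0.36.

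The inhibitors and feedback regulators of NF-κB, genes that the factor induces to limit itself, fell more widely: 10 of 17 tested members were lower and none was higher, with a median of -1.28 against 0.00 for all genes. ZC3H12A, an RNase that degrades inflammatory mRNAs, fell from 81.8 and 68.6 scaled TPM to 5.89 and 3.99 (log2 fold change -3.69, adjusted p = 5.68e-05). TNIP3, which binds the A20 enzyme, fell from 12.3 and 14.2 to 0.373 and 0.246 (-3.44, adjusted p = 1.49e-05). TNFAIP3, which encodes A20, fell from 61.1 and 57.7 to 6.63 and 8.20 (-2.85, adjusted p = 0.000262). In these 3 regulators the highest IL1R1-KO library lay far under the lowest WT library. BIRC3, a ubiquitin ligase that acts on the TNF receptor complex, fell from 610 and 670 to 133 and 124 (-2.31, adjusted p = 9.06e-06). NFKBIA, the classical inhibitor IκBα, fell from 251 and 233 to 94.3 and 87.7 (-1.4, adjusted p = 5.68e-06). NFKBIZ fell by 1.87, ZC3H12C by 1.73 and TNIP1 by 1.53 on the log2 scale. NFKBIE and NFKBID, which had log2 fold changes of -1.28 and -1.21, completed the lower set, and both calls were lost under some settings. CYLD, BCL3, NFKBIB, TRAF1, TNIP2, OTULIN and BIRC2 were not called, with log2 fold changes from -1 for BCL3 to 0.20 for BIRC2.

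The neutrophil-attracting ELR+ chemokines showed the steepest list-wide decrease, with all 4 tested of 7 listed members called lower and a median of -4.11. CXCL1 was at 1060 and 987 scaled TPM in irradiated WT and at 16 and 14 in irradiated IL1R1-KO, a 68.3-fold ratio of the means (log2 fold change -6.00, SE 0.15, adjusted p = 1.51e-08). CXCL8, the main human neutrophil chemokine, was at 276 and 275 against 10.0 and 8.62, a 29.6-fold ratio (-4.75, SE 0.11, adjusted p = 1.51e-08). The replicates of either group differed far less than the groups did. CXCL2 fell from 66.6 and 58.4 to 4.50 and 4.99 (-3.46, adjusted p = 2.67e-05) and CXCL3 from 15 and 12.1 to 1.01 and 0.785 (-2.93, adjusted p = 9.42e-05). Reads of the closely related CXCL1, CXCL2 and CXCL3 may be shared between these genes by the counting. Among 8 other chemokines tested, CCL2, which attracts monocytes, fell from 59.1 and 57.5 to 1.89 and 2.30 (-4.26, adjusted p = 1.85e-06), and CCL20, which attracts CCR6-bearing lymphocytes, fell from 44.4 and 39.5 to 4.79 and 3.13 (-3.13, adjusted p = 3.1e-05). CXCL10 and CXCL11, chemokines of the interferon response, had log2 fold changes of -0.27 and -0.26 and adjusted p of 0.512 and 0.46, and CXCL16 one of 0.08. These 3 chemokines were not called.

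The 250 bases before the annotated start were read for the called genes above, since members of these lists moved together. The sequences are from RefSeq (GRCh38.p14), 5′ to 3′ on the strand of the gene, and capitals mark each match to the NF-κB consensus of 10 letters, searched on both strands. A match is a description of letters and not a measured binding site. CXCL1 holds a pair of overlapping matches that start 79 and 78 bases before the start, in chr4:73869143-73869392 (plus strand). The others shown are CFB in chr6:31945845-31946094 (plus strand), NFKBIA in chr14:35404750-35404999 (minus strand), BIRC3 in chr11:102317234-102317483 (plus strand), TNIP3 in chr4:121227484-121227733 (minus strand) and TNIP1 in chr5:151081035-151081284 (minus strand). The choice was made among called members of the lists and the genes with the largest changes, and genes without a window, such as CSF3, could not be shown. With CXCL1 these were the 6 of lowest adjusted p that hold the consensus. For TNIP3 2 of 3 windows hold it and for TNIP1 1 of 2, and a window with a match is shown. CXCL8 in chr4:73740319-73740568 (plus strand) and SOD2 in chr6:159727385-159727634 (minus strand) are the 2 of lowest adjusted p whose windows lack a full match. The search asked for GGGRNNYYCC or its reverse complement, where R is A or G and Y is C or T, so near matches are not marked. The CXCL8 window holds ggaatttcct, which differs from the reverse complement only in its last letter, so a lack of capitals does not show that a site is absent.
CXCL1: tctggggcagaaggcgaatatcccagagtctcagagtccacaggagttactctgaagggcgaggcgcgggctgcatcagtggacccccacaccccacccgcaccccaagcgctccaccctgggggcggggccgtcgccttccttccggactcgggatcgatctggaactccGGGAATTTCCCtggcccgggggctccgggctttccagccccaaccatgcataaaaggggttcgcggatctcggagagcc
CFB: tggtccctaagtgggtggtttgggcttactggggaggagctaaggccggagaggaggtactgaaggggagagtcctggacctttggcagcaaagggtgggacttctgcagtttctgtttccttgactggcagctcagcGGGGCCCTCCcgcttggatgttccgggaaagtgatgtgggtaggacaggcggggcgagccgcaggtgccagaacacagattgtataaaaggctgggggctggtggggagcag
NFKBIA: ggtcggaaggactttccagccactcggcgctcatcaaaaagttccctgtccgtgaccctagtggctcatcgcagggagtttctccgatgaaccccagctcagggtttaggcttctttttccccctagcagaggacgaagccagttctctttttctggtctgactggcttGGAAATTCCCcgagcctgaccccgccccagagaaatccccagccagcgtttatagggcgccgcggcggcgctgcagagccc
BIRC3: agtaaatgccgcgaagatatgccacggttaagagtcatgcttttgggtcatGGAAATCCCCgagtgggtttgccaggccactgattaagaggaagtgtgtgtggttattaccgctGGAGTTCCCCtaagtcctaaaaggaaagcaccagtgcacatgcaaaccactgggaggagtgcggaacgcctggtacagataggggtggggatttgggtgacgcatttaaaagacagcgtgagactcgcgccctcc
TNIP3: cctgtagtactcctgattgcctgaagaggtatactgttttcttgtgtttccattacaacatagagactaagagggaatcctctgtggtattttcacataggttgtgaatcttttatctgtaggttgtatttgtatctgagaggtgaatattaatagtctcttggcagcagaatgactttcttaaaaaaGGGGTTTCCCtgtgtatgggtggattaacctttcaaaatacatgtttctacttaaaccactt
TNIP1: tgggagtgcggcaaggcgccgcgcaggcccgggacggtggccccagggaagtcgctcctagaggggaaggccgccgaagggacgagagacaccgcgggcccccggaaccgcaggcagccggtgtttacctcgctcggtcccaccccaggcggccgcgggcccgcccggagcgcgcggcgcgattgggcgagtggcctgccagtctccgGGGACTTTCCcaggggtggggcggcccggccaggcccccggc
CXCL8: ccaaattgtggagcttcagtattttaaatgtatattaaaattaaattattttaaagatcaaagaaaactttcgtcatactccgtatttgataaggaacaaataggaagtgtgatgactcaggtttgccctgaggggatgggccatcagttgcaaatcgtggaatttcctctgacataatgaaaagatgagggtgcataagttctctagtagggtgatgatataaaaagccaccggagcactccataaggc
SOD2: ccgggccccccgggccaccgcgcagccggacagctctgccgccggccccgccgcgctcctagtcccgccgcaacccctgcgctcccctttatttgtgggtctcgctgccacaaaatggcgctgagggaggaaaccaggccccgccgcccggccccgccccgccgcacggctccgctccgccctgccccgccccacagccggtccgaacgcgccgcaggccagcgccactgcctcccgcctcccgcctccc

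Across all 35116 windows of 250 bases in the table, 9.96% held the NF-κB consensus. In the same unit, it was present in 3 of the 4 windows of the ELR+ chemokines, in 11 of the 16 windows of the lower NF-κB inhibitors and feedback regulators, and in 13 of the 29 windows of all tested members of that list. For the called antimicrobial genes 3 of 15 windows held it. The AP-1 motif TGANTCA, searched in the same windows, was in 2 of these 15 windows and in 6.57% of all windows. It was in 1 of the 4 ELR+ windows and in 0 of the 16 windows of the lower NF-κB inhibitors and feedback regulators. A gene can have several windows that overlap, so windows are not independent. For the whole lower and higher sets under 80% of genes had an entry, so no share is given for them.

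Antimicrobial and mucosal defence proteins formed the most abundant group among the decreases. Of 17 tested members of this list 11 were lower and none higher, with a median of -3.02. S100A9 and S100A8, whose products form calprotectin, a metal-binding complex that starves microbes, were among the most abundant mRNAs of irradiated WT cells. S100A9 fell from 21330 and 19060 scaled TPM to 1315 and 1365 (log2 fold change -3.91, adjusted p = 5.49e-07), and S100A8 from 15680 and 12820 to 838 and 915 (-4.02, adjusted p = 1.35e-06). LTF, the iron-binding lactoferrin, had the largest decrease of all called genes. Its level went from 1036 and 662 to 2.61 and 2.98, a 304-fold ratio of the means (-7.77, SE 0.30, adjusted p = 5.49e-07). LCN2, which captures bacterial siderophores, fell from 323 and 522 to 20.6 and 20.0 (-4.27, adjusted p = 3.23e-05), S100A7 from 400 and 307 to 4.56 and 8.01 (-5.63, adjusted p = 8.62e-06), and PI3, the elastase inhibitor elafin, from 568 and 648 to 45.6 and 60.2 (-3.51, adjusted p = 3.74e-06). The WT libraries differed from each other for LTF and LCN2, in opposite directions, but by far less than they did from IL1R1-KO. SLPI, another secreted protease inhibitor, was not called at 998 and 1259 against 952 and 1033 (adjusted p = 0.425), nor was MUC1 (log2 fold change -0.27). OLFM4, a secreted glycoprotein outside the list, fell from 60.9 and 34.0 to 0.564 and 0.567 (-4.89, adjusted p = 8.62e-06).

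Acute phase and complement genes, the liver-like secretory arm of inflammation, were lower for 12 of 20 tested members and higher for none, with a median of -2.10. SAA1, a serum amyloid A protein, fell from 5785 and 5539 scaled TPM to 555 and 681 (log2 fold change -3.2, adjusted p = 5.1e-06), and its near copy SAA2 from 3493 and 3119 to 57.0 and 68.7 (-5.70, adjusted p = 5.1e-06). The split of reads between these paralogs is uncertain, though both moved the same way. SERPINA3, an inhibitor of neutrophil cathepsin G, fell from 1277 and 1178 to 99.7 and 105 (-3.57, adjusted p = 8.62e-06). Complement components fell alongside. CFB, a protease of the alternative pathway, went from 318 and 370 to 46.2 and 54.7 (-2.75, adjusted p = 3.35e-06). C1R, C1S and C3 fell by 3.2, 3.09 and 2.27 on the log2 scale. The membrane regulators CD46 and CD59, which protect the cell from complement, were not called: CD46 had a log2 fold change of -0.37 and CD59 was at 650 and 641 against 623 and 630 (adjusted p = 0.846).

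SOD2, the mitochondrial superoxide dismutase and a known NF-κB target, fell from 6304 and 5569 scaled TPM to 399 and 325 (log2 fold change -4.04, SE 0.12, adjusted p = 6.53e-08). It was among 4 of 15 tested members that were lower in a list of oxidant-producing enzymes, oxidant-removing enzymes and vanins. VNN1, a pantetheinase, fell from 79.8 and 72.1 to 9.61 and 8.99 (-2.90, adjusted p = 1.17e-06), and GPX3, a secreted glutathione peroxidase, from 7.42 and 7.25 to 1.16 and 0.955 (-2.02, adjusted p = 0.0023). VNN2, a vanin like VNN1, had a log2 fold change of -1.32, a call that was lost with the compared libraries only and without WT RT replicate 1. GPX1 and PRDX1, the most abundant uncalled members, had log2 fold changes of -0.03 and -0.29. Metallothioneins, small proteins that bind zinc and copper, were lower for 4 of 5 tested list members. MT2A fell from 2920 and 2754 to 932 and 1020 (-1.54, adjusted p = 2.23e-05) and MT1E from 238 and 221 to 61.9 and 63.1 (-1.86, adjusted p = 8.62e-06). MT1L, a transcribed pseudogene of the family, went from 38.9 and 27.5 to 0 and 0.586. Metallothionein genes share much of their sequence, so the level of a single member is uncertain. SLC30A1, a zinc exporter placed in the same list, was at 61.5 and 65.9 against 87.3 and 92.6 and was not called.

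Cytokines and myeloid growth factors were lower for 6 of 15 tested members. CSF3, the granulocyte colony-stimulating factor, fell from 78.0 and 81.6 scaled TPM to 2.67 and 2.73 (log2 fold change -4.45, SE 0.13, adjusted p = 6.04e-08). TNFSF15 fell from 74.4 and 72.5 to 19.4 and 14.7 (-2.06, adjusted p = 5.68e-05), CSF1, the macrophage growth factor, from 25.3 and 29.6 to 7.35 and 6.08 (-1.88, adjusted p = 0.000135), and EBI3, a subunit of IL-27 and IL-35, from 11.1 and 6.36 to 0.118 and 0.227 (-3.01, adjusted p = 9.46e-05). LIF, at 5.84 and 7.34 against 7.14 and 6.31, was not called, nor was TNFSF10 at 21.6 and 25.9 against 12 and 17.4. IL6, named although outside the rule because it is a classical output of IL-1, had a log2 fold change of -0.39 (adjusted p = 0.421). ICAM1, the adhesion receptor for neutrophils, fell from 44.4 and 43.6 to 15.9 and 15.8 (-1.42, adjusted p = 9.06e-06), and PLAU, the urokinase activator of plasminogen, from 119 and 69.1 to 16.5 and 17.9 (-2.34, adjusted p = 0.000246). The squamous serpins SERPINB4 and SERPINB3, close paralogs, fell from 16 and 12.8 to 0.509 and 0.426 and from 10.4 and 9.31 to 0 and 0.217.

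Of 11 tested genes of the interferon-γ type, 4 were lower and none higher, with a median of -0.40. With the filter at 5 TPM 1 member was called lower and the median was 0.19, and with the compared libraries only 1 was called. IRF1 fell from 30.8 and 32.1 scaled TPM to 14.7 and 15 (log2 fold change -1.03, adjusted p = 0.00533), a call that was lost with TPM as deposited and with nuclear protein-coding scaling. The remaining 3 belong to the MHC class II pathway and were low. CD74, the invariant chain, was at 11.7 and 4.11 in WT and at 0 and 0.303 in IL1R1-KO (-2.82, adjusted p = 0.00116). HLA-DRA was at 8.02 and 1.96 in WT and was listed at 0 in both IL1R1-KO libraries. CIITA, the class II transactivator, was at 5.59 and 2.48 against 0.610 and 0.236 (-1.76, adjusted p = 0.00704). The 2 WT libraries differed from each other by more than 2-fold for all 3, and all 3 calls were lost when only the 4 compared libraries entered the fit. The guanylate-binding gene GBP2 went from 73.9 and 71.9 to 37.3 and 35.5 and missed the fold required (-0.98, adjusted p = 0.000515). The 17 MHC class I genes held no call, with a median of -0.10 that turned to 0.16 with TPM as deposited.

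**Figure D2:**
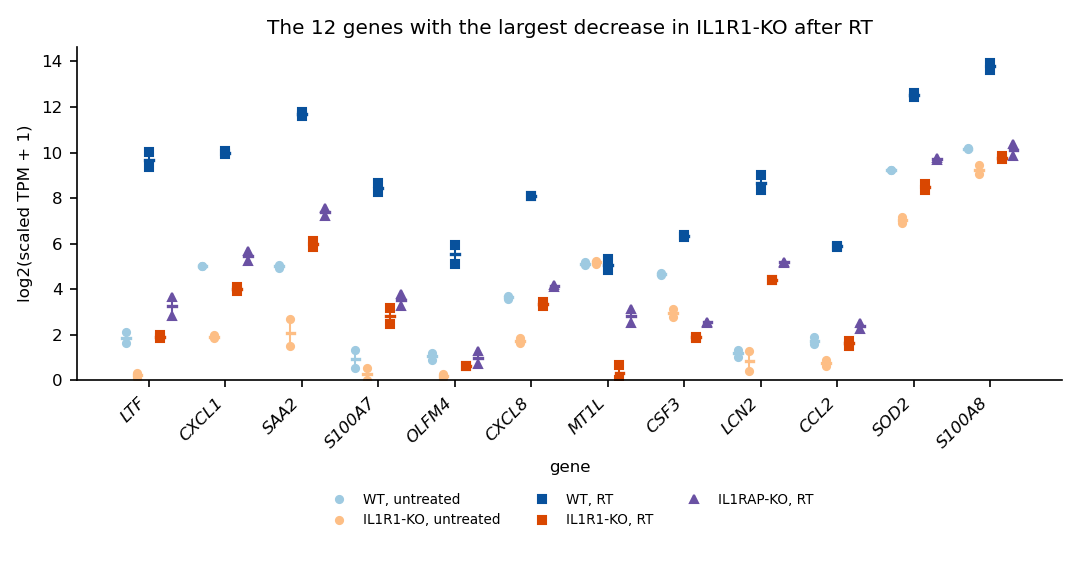
Level of the 12 named genes with the largest decrease in irradiated IL1R1-KO (horizontal axis), as log2(scaled TPM + 1) on the vertical axis, with untreated libraries as pale circles (blue WT, orange IL1R1-KO). Each symbol is a library, joined by a line with its replicate and crossed by the mean of the pair. Irradiated WT (dark blue squares) lies above irradiated IL1R1-KO (orange squares) for all 12 genes, as the choice of genes without overlap required. The irradiated IL1RAP-KO libraries (purple triangles) lie under irradiated WT too, and the choice used these same WT libraries.

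In the other direction, type I interferon response genes were higher for 12 of 40 tested members and lower for none, with a median of 0.84 that kept its sign under each scaling. These genes encode antiviral proteins that are induced by interferon signalling. IFIT1, which binds foreign RNA, was at 7.59 and 17.1 scaled TPM in irradiated WT and at 47.0 and 59.7 in irradiated IL1R1-KO (log2 fold change 2.12, SE 0.30, adjusted p = 0.0022). IFIT2 rose from 12 and 15.6 to 33.8 and 39.2 (1.34, adjusted p = 0.0023), HERC6 from 10.5 and 25.9 to 53 and 51.9 (1.61, adjusted p = 0.0102) and PARP9 from 23.7 and 38.6 to 58.2 and 65.9 (1.01, adjusted p = 0.00731). In each of these genes WT replicate 1 was the lowest of the 4 libraries. The summed level of the list was 3007 and 4282 in WT and 4705 and 5319 in IL1R1-KO. Without WT RT replicate 1, 2 members were called higher and the median was 0.41, and without WT RT replicate 2, 18 members were called and the median was 1.01. Without IL1R1-KO RT replicate 1 or 2, 4 or 2 members were called, and 1 with the compared libraries only. IFI6, the most variable, was at 148 and 598 in WT and 828 and 925 in IL1R1-KO and was not called (adjusted p = 0.0715). IFITM3 had a log2 fold change of 0.14 (adjusted p = 0.526).

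The window of IFIT1, chosen after its values were seen, is chr10:89392373-89392622 (plus strand) and holds a pair of matches to the ISRE core GAAANNGAAA, written in capitals and read on the opposite strand, starting 116 and 103 bases before the start. The ISRE core was present in 3.02% of all 35116 windows. Under 80% of the interferon list had an entry, so no share is given for it.
IFIT1: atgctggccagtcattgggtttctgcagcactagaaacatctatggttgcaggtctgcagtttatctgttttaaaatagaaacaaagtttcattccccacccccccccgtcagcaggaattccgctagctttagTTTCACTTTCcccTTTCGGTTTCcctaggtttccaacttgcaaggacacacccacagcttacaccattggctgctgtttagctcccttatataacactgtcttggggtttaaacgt

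A joint list held genes of the integrated stress response, which is run by ATF4 when translation initiation is restrained, and of the unfolded protein response. Of its 24 tested members 5 were higher and none was lower, with fewer called without WT RT replicate 1. DDIT3, the transcription factor CHOP, rose from 22.1 and 27.6 scaled TPM to 109 and 106 (log2 fold change 2.08, SE 0.17, adjusted p = 6.19e-05). TRIB3, a pseudokinase induced by CHOP, rose from 33.5 and 41.0 to 133 and 133 (1.82, SE 0.15, adjusted p = 7.03e-05). CLGN, a chaperone of the endoplasmic reticulum, rose from 4.43 and 10.3 to 32.8 and 29.7 (2.04, adjusted p = 0.003, a call lost with the compared libraries only), SESN2, also a p53 target, from 11.8 and 15.4 to 27.4 and 29.2 (1.01, adjusted p = 0.00204), and CHAC1 by 1.16. ATF4 mRNA was not called and lay slightly lower, at 375 and 371 against 271 and 283 (-0.43, adjusted p = 0.00575). SLC7A11, the cystine transporter, rose from 10.2 and 9.29 to 22.7 and 21.5 (1.10, adjusted p = 0.00477) and was the single called member among 20 NRF2 targets. The median of that list was -0.16, and with the compared libraries only 1 member was called higher and 3 lower. ATF3 rose from 11.1 and 18.3 to 36.6 and 42.5 (1.4, adjusted p = 0.0366), while FOS fell from 45 and 33.0 to 17.6 and 14.6 (-1.22, adjusted p = 0.00338), both being immediate early genes whose calls were lost under several settings.

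Histone genes of the replication-dependent clusters were higher for 7 of 19 tested members and lower for none, with a median of 0.71. The library protocol removed ribosomal RNA rather than selecting poly(A) tails, so histone mRNAs without a tail could be captured. TPM do not tell them apart from histone mRNAs with a tail. H4C8 rose from 15.1 and 15.9 scaled TPM to 60.2 and 61.1 (log2 fold change 1.91, adjusted p = 0.00338), H2BC21 from 17.1 and 21.1 to 43.6 and 42.8 (adjusted p = 0.000901), H1-2 from 47.0 and 46.7 to 97.6 and 104 (1.09, adjusted p = 0.00105) and H2AC6 from 92.2 and 126 to 221 and 235 (1.07, adjusted p = 0.00316). Members of these clusters are near copies, so reads may be split between them. Without WT RT replicate 1, 3 members of the list were called higher. The 36 mitosis genes held 2 calls, both lower, with 6 lower without WT RT replicate 1 and 8 lower with a pseudocount of 0.1. TOP2A, the DNA topoisomerase of dividing cells, was at 4.98 and 4.41 against 1.25 and 1.44 (-1.28, adjusted p = 0.000217), and CDC20 at 2.55 and 2.63 against 0.637 and 0.454 (-1.22, adjusted p = 0.00758). The CDC20 call was lost without WT RT replicate 1 and without IL1R1-KO RT replicate 2. In untreated cells TOP2A stood at 70.0 and 72.5 in WT and 71.5 and 72.2 in IL1R1-KO.

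Keratins and epidermal genes moved in both directions. The list of basal and stress keratins and basal markers held 3 higher and 2 lower of 18 tested members, with a median of 0.10, and the list of cornified envelope and keratinocyte differentiation genes 2 higher and 1 lower of 20, with a median of 0.36. KRT6A, a keratin of stressed epithelium, rose from 375 and 381 scaled TPM to 757 and 853 (log2 fold change 1.09, SE 0.08, adjusted p = 4.53e-05), and KRT14, a basal keratin, from 27.6 and 29.6 to 64.1 and 81.7 (1.31, adjusted p = 0.000413). KRT81, a hair keratin, rose from 95.9 and 136 to 500 and 599 (2.25, adjusted p = 0.00127). KRT5 and KRT17 had log2 fold changes of 0.45 and 0.98 and were not called. The laminin subunits LAMB3 and LAMA3 of the same list fell from 338 and 289 to 140 and 145 (-1.13) and from 432 and 376 to 190 and 195 (-1.07), calls that were lost with TPM as deposited and nuclear protein-coding scaling. KLK5 and KLK7, serine proteases that free cells at the skin surface, rose from 2.49 and 5.49 to 18 and 22.3 (2.14, adjusted p = 0.00293) and from 3.57 and 12.1 to 31.5 and 37.8 (2.20, adjusted p = 0.0126). LCE3D, a late cornified envelope gene and the lower call of the second list, was at 2.85 and 1.51 in WT and listed at 0 in both IL1R1-KO libraries. With the compared libraries only, no member of the second list was called. The KLK7 call was lost when any of 3 of the 4 libraries was left out. Highest of all named increases was CYP1A1, the aryl hydrocarbon receptor target, at 4.74 and 5.13 in WT and 39.8 and 32.1 in IL1R1-KO (2.63, adjusted p = 0.00172). CD24 rose from 40.3 and 60.1 to 180 and 218 (1.99, adjusted p = 0.00132), C1orf116 from 13.6 and 17.4 to 59.1 and 69.3 (1.99, adjusted p = 3.8e-05) and CMKLR2, a chemerin receptor, from 1.57 and 2.62 to 10.7 and 14.3 (2.13, adjusted p = 0.000396). SERPINB2 and TIMP3, inhibitors of proteases, had log2 fold changes of 1.17 and 1.14, and both calls were lost without WT RT replicate 1.

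**Figure D3:**
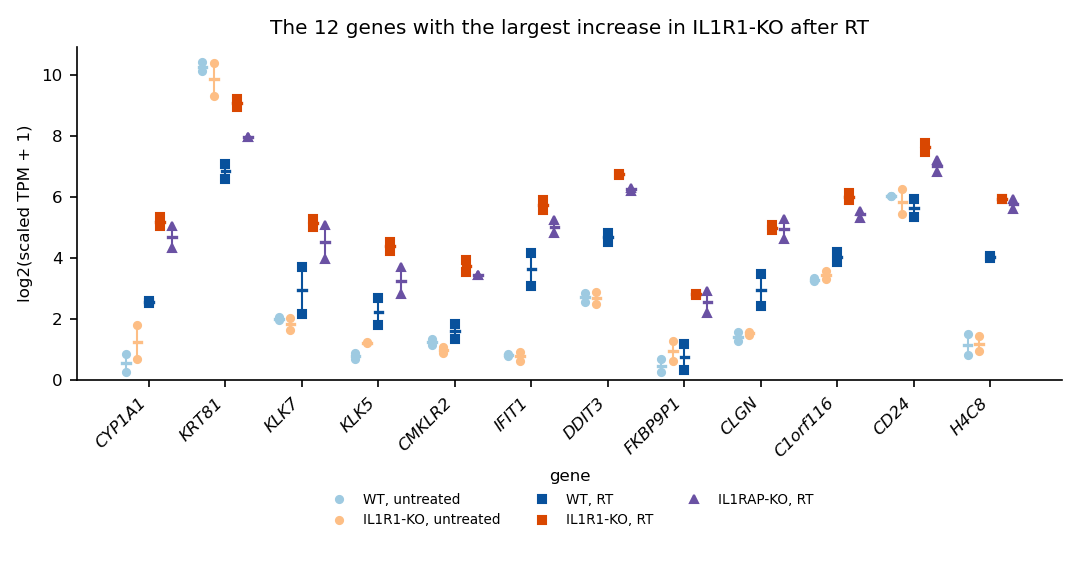
Level of the 12 named genes with the largest increase in irradiated IL1R1-KO, as log2(scaled TPM + 1), drawn as in the plot of the decreases. Irradiated IL1R1-KO (orange squares) lies above irradiated WT (dark blue squares) for all 12 genes, as the choice of genes without overlap required. The WT replicates spread widely for KLK7 and FKBP9P1.

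Several programmes that RT is known to engage held few or no calls between the genotypes. Among 30 p53 targets SESN2 alone was called, and not without WT RT replicate 1 or IL1R1-KO RT replicate 2. CDKN1A, the p21 cell cycle inhibitor, was at 217 and 223 scaled TPM in WT and 392 and 390 in IL1R1-KO, a difference of 0.83 on the log2 scale that passed the adjusted p (0.0123) but not the fold required. MDM2 was at 425 and 381 against 286 and 309 (-0.44, adjusted p = 0.0198). None of 37 DNA replication genes, 26 sterol and fatty acid synthesis genes, 13 mitochondrially encoded mRNAs or 11 housekeeping genes was called, though RPLP0 and PPIA of the last list had log2 fold changes of -0.72 and -0.54. The 16 tested genes of the BCL2 family, which set the threshold for mitochondrial cell death, held no call, with a median of 0.15. MCL1 was at 227 and 231 against 250 and 251 (interval of the log2 difference -0.04 to 0.30), and BAX at 95.5 and 98.3 against 82.3 and 77.7 (-0.59 to 0.04). BCL2L1, named although outside the rule because the study used an inhibitor of its product, was at 65.0 and 64.6 in WT and 89.6 and 93.8 in IL1R1-KO (0.49, adjusted p = 0.0851).

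The labelled cell type was checked against its markers in the 4 libraries. The 7 basal markers KRT5, KRT14, KRT17, TP63, ITGA6, CDH3 and EGFR were all expressed, with summed levels of 1828 to 1955 scaled TPM in WT and 2509 to 3006 in IL1R1-KO. The luminal markers were split. Of 7 listed, 4 were tested and expressed in all 4 libraries: KRT18 at 158 to 183 scaled TPM, KRT8 at 76.7 to 111, EPCAM at 27.4 to 42.3 and GATA3 at 7.38 to 11.5. KRT19, ESR1 and ELF5 stayed under 1. Leukocyte and endothelial markers were low: the 6 leukocyte markers summed to between 6.07 and 10.6, with PTPRC under 1 in every library, and the 4 endothelial markers to between 6.55 and 9.83. The 7 fibroblast markers summed to 65.2 to 91.1 in WT and 43.4 to 49.1 in IL1R1-KO, nearly all of it DCN, with COL1A2 at 0 in every library. In bulk RNA, fewer cells that express a gene and less RNA per cell cannot be told apart.

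**Figure D4:**
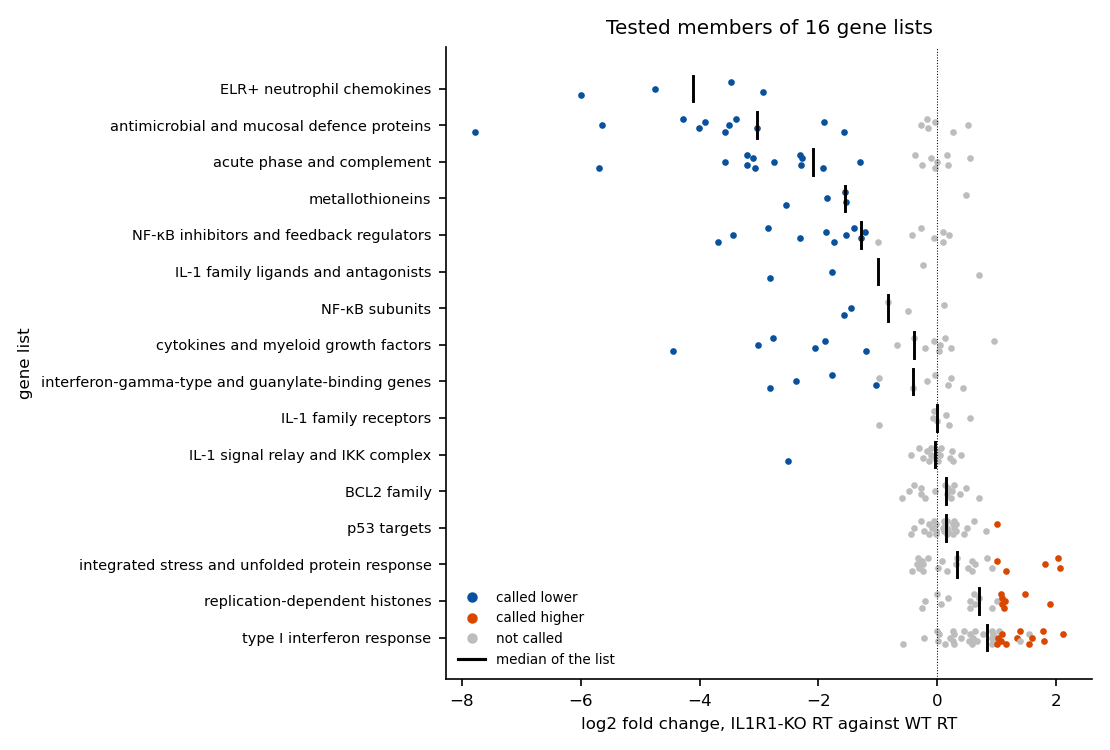
Log2 fold change of irradiated IL1R1-KO against irradiated WT (horizontal axis) for the tested members of 16 gene lists (rows). Each point is a gene, blue where called lower, orange where called higher and grey otherwise, and the black bar is the median of the list. Medians run from -4.11 for the ELR+ chemokines to 0.84 for the type I interferon list.

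Without RT the genotypes differed at 18 lower (0.118%) and 3 higher (0.0196%) genes of the same 15303. Of the 289 genes lower after RT, 16 were also lower without RT, and of the 180 higher genes none was higher without RT. CXCL1 stood at 31.8 and 31.2 scaled TPM in untreated WT and at 2.69 and 2.93 in untreated IL1R1-KO (log2 fold change -3.09, adjusted p = 2.67e-05), SOD2 at 606 and 601 against 141 and 118 (-2.21, adjusted p = 5.15e-05) and TNFAIP3 at 14.2 and 16.2 against 2.56 and 2.73 (-2.15, adjusted p = 0.0172). CXCL8, CXCL2, CSF3, SAA1, SAA2, CFB, IRAK2, BIRC3, TNIP1 and RELB were lower too. No antimicrobial gene of 17 was called without RT, and the median was -0.26. A missed call does not show equal levels, as S100A8 was at 1169 and 1129 in untreated WT and 701 and 533 in untreated IL1R1-KO (-0.91, 95% interval -1.31 to -0.51, adjusted p = 0.167). LTF was at 3.31 and 2.09 against 0.0857 and 0.251 (-1.65, interval -2.31 to -0.98, adjusted p = 0.118).

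The response to RT was then set side by side for both genotypes, each against its own untreated libraries. These contrasts share libraries with the main comparison, and RT itself changed far more genes than the genotype: 1079 higher (7.05%) and 942 lower (6.16%) in WT, and 1248 higher (8.16%) and 1248 lower (8.16%) in IL1R1-KO. The ELR+ chemokines rose in WT for 4 of 4 members with a median log2 change of 3.52, and in IL1R1-KO for 2 of 4 with a median of 1.21. Antimicrobial genes rose for 15 of 17 in WT (median 3.24) and for 11 of 17 in IL1R1-KO (median 1.35), and acute phase and complement genes for 13 of 20 (median 2.12) and 9 of 20 (median 0.60). Type I interferon genes rose for 27 of 40 in WT (median 1.67) and for 36 of 40 in IL1R1-KO (median 2.40). Mitosis genes fell for 36 of 36 in either genotype.

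The test of the difference itself, the interaction of genotype and RT, called 142 genes with a lower response (0.928%) and 79 with a higher response (0.516%) in IL1R1-KO than in WT. Of the 289 genes lower after RT, 135 were among the former, and of the 180 higher genes 59 were among the latter. The interaction uses the same RT libraries as the main comparison, so part of this overlap is built in. LTF rose from 3.31 and 2.09 scaled TPM to 1036 and 662 with RT in WT, and from 0.0857 and 0.251 to 2.61 and 2.98 in IL1R1-KO, a difference of -6.13 between the responses (SE 0.42, adjusted p = 0.000156). S100A7, MT1L, OLFM4, LCN2 and VNN3P, a vanin pseudogene, followed with differences from -4.97 to -3.68. MT1L moved in an unusual way, since it stayed at 38.9 and 27.5 after RT in WT, against 32.3 and 35.7 without RT, and dropped to 0 and 0.586 from 37.3 and 33.3 in IL1R1-KO. For RELB and TNFAIP3 the interaction did not pass, with 0.18 (adjusted p = 0.739) and -0.70 (adjusted p = 0.43). These genes were lower in IL1R1-KO without RT too (-1.63 and -2.15), and a missed threshold does not show that the responses were equal. In the higher direction KRT81, CMKLR2, LURAP1L-AS1, CD24, IFIT1 and DDIT3 led, with differences from 2.66 to 2.11. KRT81 fell with RT from 1366 and 1129 to 95.9 and 136 in WT and from 638 and 1355 to 500 and 599 in IL1R1-KO. Of the interferon list, 2 of 40 members passed the interaction.

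The cells labelled IL1RAP-KO were targeted in the other chain of the same receptor, and their irradiated libraries were compared with the same WT libraries. That contrast called 316 lower (2.06%) and 126 higher (0.823%) genes. Because the WT libraries are shared, the values are set side by side only. The list medians were -3.66 in IL1RAP-KO and -4.11 in IL1R1-KO for the ELR+ chemokines, -2.67 and -3.02 for the antimicrobial genes, -1.68 and -2.10 for acute phase and complement genes and 0.41 and 0.84 for the type I interferon list. Members called lower numbered 4 and 4, 11 and 11, and 12 and 12 in the first 3 lists, and members called higher numbered 2 and 12 in the interferon list. Mitochondrial RNA took 45.1% and 57.0% of TPM in the IL1RAP-KO RT libraries, more than in any other.

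The direct test of irradiated IL1R1-KO against irradiated IL1RAP-KO, which does not involve WT, called 9 lower (0.0588%) and 2 higher (0.0131%) genes. CXCL1 was at 16 and 14 scaled TPM in IL1R1-KO and 51 and 36.6 in IL1RAP-KO (log2 difference -1.47, SE 0.15, adjusted p = 0.00684), and SOD2 at 399 and 325 against 862 and 821 (-1.22, SE 0.12, adjusted p = 0.00684). Both lay far under WT in either knockout and lower in IL1R1-KO. MT1L was at 0 and 0.586 against 4.74 and 7.89 (-2.50, adjusted p = 0.0178). MKKS and SPTSSB were lower by 3.18 and 1.52 (adjusted p = 0.0496 for each), and the MKKS value is that of 1 of 3 identifiers with this symbol, at 23 and 11.6 in IL1R1-KO against 245 and 101 in IL1RAP-KO. The remaining 6 calls were POPDC2, low in all groups, and 5 genes known only by an identifier, each listed at 0 in the lower group. CXCL8 differed by -0.77 (adjusted p = 0.0496) and GBP2 by -0.83 (adjusted p = 0.0383), under the fold required. For S100A8, IL1B and TNFAIP3 the intervals of the log2 difference were -0.75 to 0.05, -0.61 to 0.09 and -0.76 to 0.52, and for IFIT1 0.04 to 1.4. The number of calls rested on 1 library, as leaving out IL1RAP-KO RT replicate 1 gave 102 lower and 214 higher genes.

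**Figure D5:**
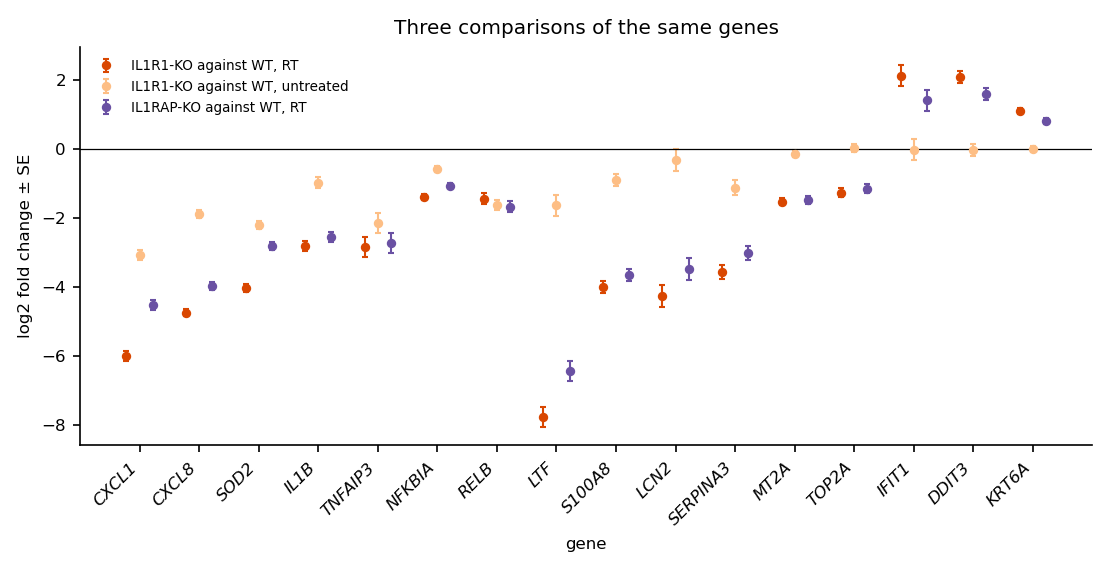
Log2 fold change with its SE (vertical axis) of 16 genes in 3 comparisons: irradiated IL1R1-KO against irradiated WT (orange), untreated IL1R1-KO against untreated WT (pale orange) and irradiated IL1RAP-KO against irradiated WT (purple). The first and last share the WT RT libraries. CXCL1 lies at -6.00, -3.09 and -4.53, and RELB at -1.45, -1.63 and -1.69.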

How the data were processed

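RNA-seq was made from 12 MCF10A libraries, 2 each of WT, IL1R1-KO and IL1RAP-KO cells with or without 20 Gy. Per the study's methods, stranded total RNA libraries were made after removal of ribosomal RNA and sequenced as paired 75-base reads. Cutadapt 1.15 removed adapters, STAR 2.5.3a mapped the reads to GRCh38, and HTSeq assigned them to genes of Ensembl v83. The authors tested the counts with DESeq2. The fold threshold that they give differs between their Methods, where it is lower than here, and their Results, where it is the one used here. The deposited files hold TPM for 60675 genes, made by the authors in a way not given in the sources used here. The 12 single-library files equal the table of the whole series, and no counts were used here, so depth, counting error and a count test are out of reach.

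Genes at 1 TPM or more in at least 2 of the 12 libraries (15303) were kept. TPM were divided by TMM factors (trims of 30% and 5%), and log2(scaled TPM + 1) was fitted with 6 group means over all 12 libraries in limma 3.58.1 (R 4.3.3) with a variance trend. Tests were two-sided with Benjamini-Hochberg adjustment over all genes. Residual degrees of freedom were 6 and prior degrees 3.73. Fold changes on this scale understate those of low genes. The methods call the replicates biological, but the labels do not say that they were separate cultures, so p-values measure the spread between these libraries. The procedure was run on simulated data with independent normal errors of the fitted spread, which assume the model itself. That run therefore cannot show how calls behave when a library deviates from its replicate.

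Symbols are those of GENCODE v44, matched for 60419 of 60675 identifiers. Named genes are IL1R1 and IL1RAP; the 12 highest and lowest called genes with a mean of at least 4 scaled TPM in the higher group and no overlap; up to 4 called members of each of 39 lists (746 genes) by adjusted p and the 2 most abundant uncalled ones, with every tested member of the IL-1 ligand, receptor, NF-κB subunit, NF-κB inhibitor and ELR+ lists; and the 6 highest and lowest for the interaction and the direct comparison under the same limits. Apart from cell type markers, IL6, BCL2L1, MYD88, IRAK1, IRAK4, TRAF6, MAP3K7 and CHUK were named outside this rule. So were CXCL10, CXCL11, C1R, C1S, C3, CHAC1 and POPDC2. Genes known only by an identifier or clone name were counted and not named. A few genes that the rule or the marker lists hold are not reported here. The comparison, the lists and the scaling were chosen with earlier results of these data known, and a list is described by its counts beside those of all genes, without a set test. Alternatives were other scalings, pseudocount 0.1, no filter or 5 TPM, the compared libraries alone, the replicate number as a block, a fold of 1.5, and each library left out.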

Additional observations from a re-analysis of the deposited data

Results flagged for a closer look

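The response to RT differed between the genotypes by the interaction test for 79 genes with a higher and 142 with a lower response in IL1R1-KO than in WT. Among the named genes the differences, IL1R1-KO minus WT on the log2 scale, were -6.13 for LTF, -4.97 for S100A7, -4.79 for MT1L, -4.02 for OLFM4, -3.94 for LCN2 and -3.68 for VNN3P. In the other direction they were 2.66 for KRT81, 2.39 for CMKLR2, 2.31 for LURAP1L-AS1, 2.19 for CD24, 2.15 for IFIT1 and 2.11 for DDIT3. No group had the 4 samples that a check for a sample far from the others needs.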

How the results depend on the processing

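Of 90 named genes called in irradiated IL1R1-KO against irradiated WT, 62 kept their call in every alternative and 28 lost it in at least 1, and no called gene changed sign. The 2 scalings named in the report gave 374 higher (TPM as deposited) and 535 higher (nuclear protein-coding genes) of the main comparison, and 103 were higher with the compared libraries only. A fold over 1.5 gave 481 higher and 643 lower. For the interaction, 134 were higher and 79 lower with TPM as deposited, 410 higher with nuclear protein-coding scaling, 37 higher without the filter, and 121 higher and 256 lower at a fold over 1.5. Without RT, 0 higher and 0 lower were called with the compared libraries only. In the fit of all libraries by limma, 371 and 435 of 15303 genes had an unadjusted p under 0.05. If no gene differed, a share of about 0.05 would pass that limit, so such counts do not number the genes that differ. Against IL1RAP-KO RT, the calls were 6 higher and 3 lower with TPM as deposited, 4 higher with nuclear protein-coding scaling, 5 higher without the filter, 0 higher and 4 lower with 5 TPM or more, and 0 and 0 with the compared libraries only, with 1233 and 1092 at an unadjusted p under 0.05 in the fit of all libraries. Leaving out each library in turn gave 87 to 222 higher genes in the main comparison, the lowest without WT RT replicate 1, and 218 to 312 lower. For the interaction it gave 23 to 106 higher, the lowest without IL1R1-KO RT replicate 2, and 77 to 152 lower, the lowest without WT replicate 2. Without RT it gave 2 to 20 higher and 9 to 39 lower, the highest of both without IL1R1-KO replicate 2. Against IL1RAP-KO RT it gave 1 to 214 higher and 3 to 102 lower. The lone library left in a group was assumed to vary like the others, and the cause of these shifts was not tested.

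Deviations of same-numbered libraries correlated by -0.06 to 0.10 over 15 pairs of groups, and by -0.04 between WT RT and IL1R1-KO RT, so the numbers were not taken to pair the samples. With the replicate number as a block the main comparison gave 182 higher and 291 lower genes, and the comparison with IL1RAP-KO RT gave 4 lower.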

Other observations

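The genes below were chosen after their values were seen. The untreated IL1R1-KO libraries differed from each other in iron storage genes. FTL was at 1775 scaled TPM in replicate 1 and 448 in replicate 2, and FTH1 at 11770 and 5574, while untreated WT was at 435 and 431 for FTL and at 6654 and 6703 for FTH1. After RT, FTL was at 418 and 391 in IL1R1-KO and 458 and 377 in WT. The same untreated libraries stood at 638 and 1355 for KRT81, 683 and 1420 for KRT7 and 12.5 and 27.0 for TGM1, with replicate 1 the lower in each.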
